A study of Mus musculus with 6 samples.

Results

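The interferon gamma-inducible GTPases are 10 genes of the deposited mouse gene table, taken by symbol: the guanylate binding protein (GBP) genes Gbp2, Gbp3, Gbp5, Gbp7 and Gbp9, and the immunity-related GTPase (IRG) genes Irgm1, Irgm2, Igtp, Iigp1 and Ifi47. They are 10 of 17528 listed genes, and all 10 passed the filter on low values. They were measured by RNA sequencing of CD11b+F4/80+ cells sorted from mouse femurs as marrow macrophages. The 6 libraries formed 3 groups of 2. Day 0 was BALB/c mice of genotype RAG2-/-γc-/- without a graft, and day 4 and day 18 were mice of that strain and genotype, that many days after intravenous Raji cells. Raji is a human Burkitt lymphoma line. The genotype, shared by all groups and so also by the day 0 mice, leaves the host without mature T, B and NK cells but with myeloid cells. No ungrafted group matches the later days, so graft, injection and elapsed time cannot be told apart. The age of the mice and any pooling of animals are not given in the labels.

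Interferon gamma is made mainly by T and NK cells and binds the receptor chains Ifngr1 and Ifngr2 on macrophages. The kinases Jak1 and Jak2 then pass the signal to the nucleus, where GAS elements of target promoters are bound and Irf1 is induced, while the interferon regulatory factors bind ISRE elements. The GTPases are among the most strongly induced products of this pathway in mouse macrophages, and many also respond to type I interferon. GBP proteins coat vacuoles and bacteria in the cytosol and help open them, which exposes their contents to caspase-11 and other inflammasome sensors. IRG proteins come in a GKS class, named after the residues in the nucleotide-binding loop, which attacks vacuole membranes (Iigp1 and Ifi47), and a GMS class, which sits on the host's own membranes and holds the effectors inactive there (Irgm1, Irgm2 and Igtp).

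RefSeq promoter windows (GRCm38.p6, 250 bases before to 50 after a gene start) were found for 8 of the 10 genes. They are shown because they bear on whether members that moved and members that did not share these elements. The motifs were searched on both strands: GAAANNGAAA, taken as ISRE, and the palindrome TTCNNNGAA, taken as GAS. The ISRE letters were in the windows of 7 of the 8 genes, against 3.99% of 27025 genes with a window. The GAS letters were in 4 of the 8, against 9.55%. Ifi47 had neither in its window, and no sequence is shown for Gbp9 and Iigp1. A match is a description of letters and not a binding site. In the stretches below, written 5′ to 3′ in the direction of the gene, capitals mark the ISRE letters (on the opposite strand, TTTCNNTTTC, in the GBP genes) and, in Igtp and Irgm2, the GAS letters just before them.
Gbp2: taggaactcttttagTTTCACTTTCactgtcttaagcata
Gbp3: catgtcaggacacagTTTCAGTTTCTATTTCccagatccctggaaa
Gbp5: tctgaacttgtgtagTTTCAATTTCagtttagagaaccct
Gbp7: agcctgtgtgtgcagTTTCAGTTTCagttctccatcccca
Irgm1: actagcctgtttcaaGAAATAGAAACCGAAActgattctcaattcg
Igtp: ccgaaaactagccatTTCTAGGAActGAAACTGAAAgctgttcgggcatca
Irgm2: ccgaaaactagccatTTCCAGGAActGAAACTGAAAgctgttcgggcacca
The stretches lie at chr3:142620589-142620628, chr3:142559984-142560029, chr3:142496754-142496793 and chr3:142530268-142530307 on the plus strand, chr11:48871420-48871465 on the minus strand, and chr11:58199496-58199546 and chr11:58214887-58214937 on the plus strand. Gbp3 and Irgm1 each hold 2 ISRE matches that overlap.

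The ISRE match nearest the start began 39 bases upstream in Gbp3, 59 in Gbp2 and 53 in Gbp7, but 165 in Gbp5. These distances are from the RefSeq start, which in Gbp5 lies 2956 bases inside the annotated gene span given below, and a second Gbp3 window, with its start at 142560356, held neither motif. In the IRG genes it began 34 bases upstream in Igtp, 24 in Irgm1 and 64 in Irgm2. Gbp5 and Gbp7 each held 2 GAS matches elsewhere in the window. The whole window of Gbp5, the GBP gene with the largest rise, is at chr3:142496684-142496983 on the plus strand, with ISRE and GAS letters in capitals.
Gbp5: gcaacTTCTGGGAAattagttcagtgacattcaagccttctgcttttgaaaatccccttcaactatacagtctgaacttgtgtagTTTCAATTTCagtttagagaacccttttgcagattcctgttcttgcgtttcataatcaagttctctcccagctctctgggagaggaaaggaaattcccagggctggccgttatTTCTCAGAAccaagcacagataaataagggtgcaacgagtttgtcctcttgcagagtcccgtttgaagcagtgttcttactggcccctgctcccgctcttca
The window of Igtp, which did not pass the test in any comparison, is at chr11:58199306-58199605 on the plus strand and carries both motifs too.
Igtp: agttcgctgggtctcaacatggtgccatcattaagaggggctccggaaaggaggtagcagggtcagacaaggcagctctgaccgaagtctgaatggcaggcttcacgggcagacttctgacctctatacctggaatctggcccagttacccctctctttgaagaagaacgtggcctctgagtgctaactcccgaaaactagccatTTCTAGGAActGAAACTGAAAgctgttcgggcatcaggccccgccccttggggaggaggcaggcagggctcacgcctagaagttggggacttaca
The windows of Igtp and Irgm2 were 91.1% identical over 271 aligned columns. Genes with these letters thus included members that rose and members that did not pass the test.

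Levels are scaled RPM, reads per 1000000 assigned to listed genes after scaling between libraries. The 2 libraries of a group are called A and B, after the letters of the deposited columns. Reads assigned to genes ranged from 20073046 to 23214569 per library, and over all genes a log2 fold change had a median standard error of 0.11. Within a group, libraries differed by more than counting error, with a chi-square per gene of 2.47 to 4.56. Whether they are separate animals is not in the labels, and the p-values reflect library-to-library spread alone, possibly technical. All p-values are from limma over 14301 tested genes, adjusted by the Benjamini-Hochberg method, with a threshold of 0.05. The libraries held Itgam, Adgre1, Csf1r and Cd68, taken as markers of the sorted cells, and late neutrophil transcripts were abundant. The 12 late neutrophil markers summed to 145064 to 145462 RPM at day 0, 124333 to 128961 at day 4 and 107298 to 108965 at day 18. Of the 4 sorted-cell markers, Csf1r rose from 156 and 163 RPM on day 0 to 400.5 and 422 on day 18 (log2 change 1.37). Cd68 and Adgre1 also rose, while Itgam, which encodes CD11b, fell from 2299 and 2322 to 1934 and 1924 (-0.26, adjusted p = 2.72e-13). The 4 summed to 2525 to 2557 RPM at day 0, 2338 to 2340 at day 4 and 2474 to 2486 at day 18, most of it Itgam. For the marker counts that follow, 5.44% of all tested genes rose and 6.62% fell at day 4. At day 18, 18.0% rose and 17.1% fell. Of the 12 late neutrophil markers, 0 rose and 9 fell at day 4, and 1 rose and 9 fell at day 18. The riser was Retnlg (0.23). Of 10 markers of non-classical monocytes, 7 rose and 1 fell at day 4, and 8 rose and 1 fell at day 18. Their sums were 1122 to 1137, 1245 to 1259 and 1331 to 1338 RPM at day 0, day 4 and day 18. Of 8 markers of classical monocytes, 5 rose at day 18, led by Fn1 (1.35) and Ccr2 (1.27). The 2 that fell were Ly6c2 (-0.14) and Chil3 (-0.55). Chil3 went from 3967 and 3928 RPM at day 0 to 2680 and 2699 at day 18. The 8 summed to 5830 to 5910, 5570 to 5631 and 5710 to 5720 RPM. Eosinophil markers rose in 4 of 5 at day 18 (206 to 209, 208 to 227 and 349 to 351 RPM). Early neutrophil markers rose in 6 of 6 at day 4 and 5 of 6 at day 18 (2312 to 2342, 3732 to 3759 and 2712 to 2775 RPM). Erythroid markers fell in 4 of 6 tested at day 4 and rose in 4 of 6 at day 18. The 8 dendritic cell markers summed to 41.8 to 43.9 RPM (day 0), 47.1 to 48.4 (day 4) and 84.6 to 86.0 (day 18). From day 0 to day 18, 2 of them rose and 3 fell. Most of the gain in the sum was Itgax, which went from 15.1 and 15.9 RPM at day 0 to 57.5 and 59.2 at day 18. Cd209a (-1.16) and Clec9a (-1.05) were among those that fell. The 12 markers of resident marrow macrophages summed to 844 to 854, 693 to 711 and 822 to 834 RPM. Of these, 0 rose and 8 fell at day 4, and 7 rose and 5 fell at day 18. In these bulk samples a change in the share of a cell type and a change in RNA per cell cannot be told apart, and the part of these shifts in the results below was not tested.

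The GTPase genes were mostly higher at day 18, and 1 of them, Iigp1, passed the filter on low values only through its day 18 libraries, so it could only be called higher. Of the 10 genes, 8 rose and 0 fell from day 0 to day 18, where 18.0% of all tested genes rose and 17.1% fell (35.2% in either direction). Without Iigp1, 7 of 9 rose. The same 8 had both day 18 libraries above both day 0 libraries, as did 34.8% of all tested genes, and 8 had an unadjusted p under 0.05, as did 42.8%. For Iigp1, 1 of these 8, the filter had fixed the order of the libraries. All 5 GBP genes rose, as did Irgm1, Ifi47 and Iigp1 among the 5 IRG genes. The median log2 change of the 10 was 0.75 (0.51 without Iigp1), beside 0.02 over all tested genes, and it was 1.49 in the GBP genes and 0.30 in the IRG genes. The IRG median includes Iigp1, and the difference between the 2 families was not tested. Of the 8 risers, 4 rose at least 2-fold by the fit (Gbp2, Gbp3, Gbp5 and Iigp1; 3 of 9 without Iigp1), where 5.41% of all tested genes did. The summed level of the 10 was 110.6 and 110.0 RPM on day 0, 116 and 117 on day 4, then 158 and 167 on day 18.

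**Figure D1:**
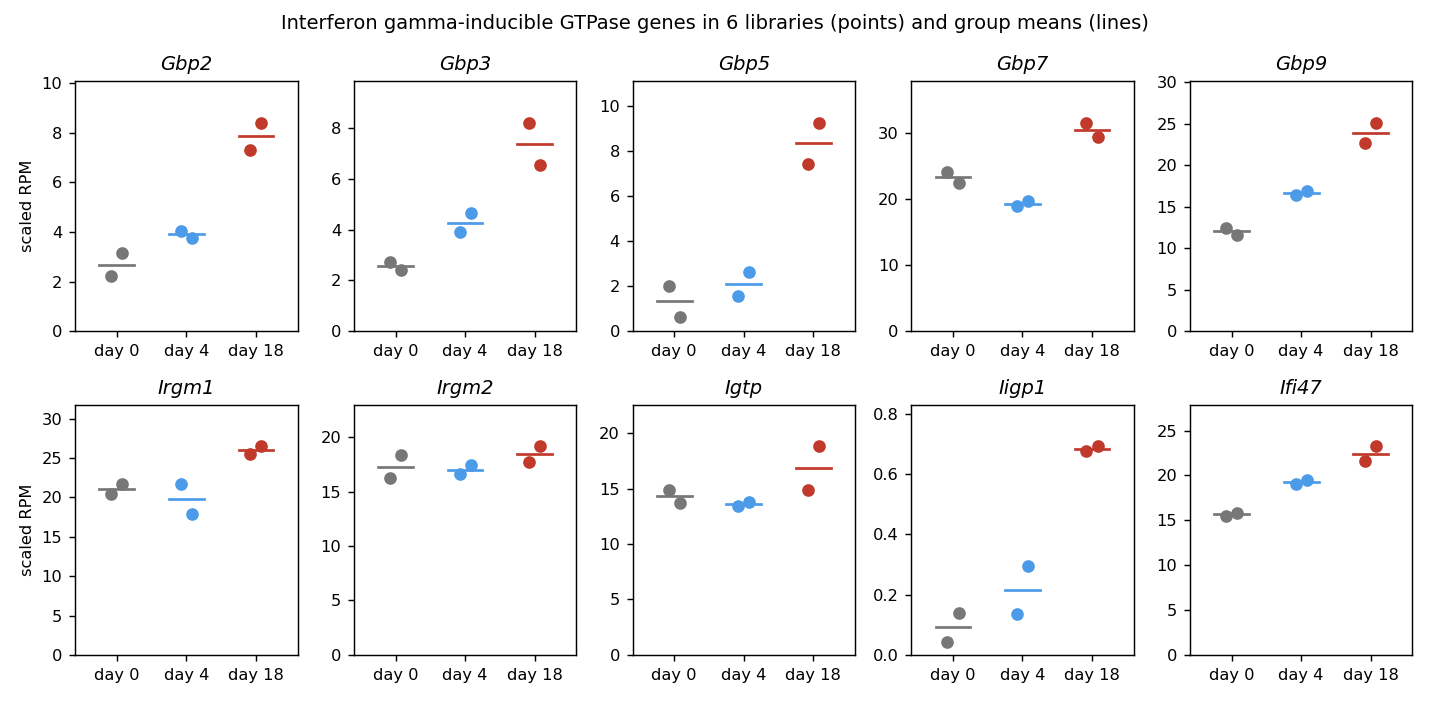
Scaled RPM of the 10 GTPase genes (linear axis from 0, own scale per panel) in each of the 6 libraries; points are libraries and lines group means. In 8 panels both day 18 points lie above both day 0 points, as they did in 34.8% of all tested genes. For Iigp1 the filter on low values had fixed this order. In the panels of Irgm2 and Igtp the day 0 and day 18 points overlap.

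Gbp2, which targets vacuoles and cytosolic bacteria through a lipid-modified tail, stood at 2.22 and 3.14 RPM on day 0, 4.04 and 3.77 on day 4, then 7.29 and 8.39 on day 18. The 3 groups did not overlap and rose stepwise. Its log2 change at day 18 was 1.53 ± 0.224 (standard error, as below; adjusted p = 4.04e-06). The change at day 4, 0.55 ± 0.224, did not pass the test (adjusted p = 0.124). The gene lies on chromosome 3, 142620602 to 142638008 in mm10, on the plus strand, and is protein-coding like the other 9.

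Gbp3, its neighbour on the same strand (142560026 to 142573209), stood at 2.71 and 2.40 RPM on day 0, 3.91 and 4.65 on day 4, then 8.21 and 6.53 on day 18. It also rose stepwise without overlap, and passed in all 3 comparisons. The log2 changes were 0.72 ± 0.221 at day 4 (adjusted p = 0.0321), 1.49 ± 0.221 at day 18 against day 0 (adjusted p = 4.98e-06) and 0.77 ± 0.221 from day 4 to day 18 (adjusted p = 0.0102). The call at day 4 ended without day 0 A (adjusted p = 0.0704), day 0 B (0.169) or day 4 B (0.191), and the last call without day 4 A (0.0887) or day 18 A (0.184).

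Gbp5, which promotes inflammasome assembly, had the largest rise of the GBP genes. It lies at 142493978 to 142522344 on chromosome 3. It stood at 2.00 and 0.647 RPM on day 0, 1.55 and 2.64 on day 4, then 7.44 and 9.26 on day 18. Day 0 and day 4 overlapped, and the day 0 libraries were far apart, with 45 and 14 reads. Both day 18 libraries were above all 4 others. The log2 change at day 18 was 2.75 ± 0.441 (adjusted p = 0.000510). Leaving out day 0 A gave 3.49, and leaving out day 0 B gave 2.00; both passed the test. The change at day 4, 0.76 ± 0.441 (adjusted p = 0.343), passed only without day 0 A (1.51, adjusted p = 0.00920) and was 0.022 without day 0 B.

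Gbp7, a GBP that has been tied to assembly of the phagocyte oxidase and to autophagy, was the most abundant GBP in RPM (chromosome 3, 142530342 to 142550149). It stood at 24.1 and 22.4 on day 0, 18.9 and 19.6 on day 4, then 31.5 and 29.4 on day 18. It was the only member whose day 4 libraries both lay below day 0, though that difference did not pass the test (-0.27 ± 0.0939, adjusted p = 0.0623). It rose by 0.39 ± 0.0939 on the log2 scale from day 0 to day 18 (adjusted p = 0.00180) and by 0.66 ± 0.0939 from day 4 (adjusted p = 4.06e-06). Its reads were whole numbers in 4 of 6 libraries. Summed with the pseudogene Gm43802 inside its exons, which held 0 to 9.03 reads, they were whole in 6 of 6, and the sum rose by 0.38 from day 0 to day 18 (adjusted p = 0.00223).

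Gbp9 belongs to the second GBP cluster, on chromosome 5 (105077630 to 105139539, minus strand). It stood at 12.5 and 11.6 RPM on day 0, 16.4 and 16.9 on day 4, then 22.8 and 25.1 on day 18. The 3 groups rose stepwise, with little spread inside each. It passed in all 3 comparisons: 0.46 ± 0.111 at day 4 (adjusted p = 0.00546), 0.98 ± 0.111 at day 18 against day 0 (adjusted p = 5.71e-08) and 0.52 ± 0.111 from day 4 to day 18 (adjusted p = 0.000678). The call at day 4 ended without day 0 B (adjusted p = 0.0673). Its exons overlap those of Gbp8 and Gbp4 by 60 bases on the same strand, but its reads were whole numbers in all 6 libraries.

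Among the IRG genes, Ifi47, a GKS-class protein also called Irgd, rose in small steps (chromosome 11, 49076587 to 49096974, plus strand). It stood at 15.5 and 15.9 RPM on day 0, 19.0 and 19.5 on day 4, then 21.6 and 23.2 on day 18, with no overlap between neighbouring days. It rose by 0.51 ± 0.103 on the log2 scale from day 0 to day 18 (adjusted p = 0.000256). The changes of 0.30 ± 0.103 at day 4 (adjusted p = 0.0611) and 0.22 ± 0.103 from day 4 to day 18 (adjusted p = 0.135) did not pass.

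Iigp1, also called Irga6, an effector that damages parasite vacuoles, was near the limit of detection. It lies on chromosome 18 and had 1 and 3 reads on day 0, 3 and 6 on day 4, then 14 and 16 on day 18. It passed the filter on low values only through its day 18 libraries, so it had to be higher there, and its call carries little weight. The ratio of summed reads was 7.56 (exact 95% interval 2.66 to 29.5, counting error only) for day 18 against day 0, with adjusted p = 0.0272 in the fit. The call ended without day 0 A (adjusted p = 0.133), and the gene left the test without day 18 A or day 18 B.

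Of the GMS class, Irgm1, which controls other IRG proteins and autophagy of vacuoles, lies on chromosome 11 (48861968 to 48871683, minus strand). It stood at 20.4 and 21.7 RPM on day 0, 21.7 and 17.9 on day 4, then 25.6 and 26.5 on day 18. Day 0 and day 4 overlapped, and day 18 lay above both. It rose by 0.30 ± 0.103 on the log2 scale from day 0 to day 18 (adjusted p = 0.0235), but this call ended without any 1 of the 4 libraries: day 0 A (0.159), day 0 B (0.0536), day 18 A (0.0821) or day 18 B (0.145). From day 4 to day 18 it rose by 0.40 ± 0.103 (adjusted p = 0.00445), which ended without day 4 B (0.106) or day 18 B (0.0612).

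Igtp, also called Irgm3, which resides on the endoplasmic reticulum and lipid droplets, and Irgm2, found on the Golgi, share reads. Their annotated spans on chromosome 11 overlap (58199556 to 58207591 and 58199618 to 58222782, plus strand), with 162 exonic bases in common. RefSeq starts Irgm2 at 58214977, beyond Igtp. Neither gene had a whole number of reads in any library, but their sum was whole in 6 of 6, as when reads are divided between the pair. Igtp stood at 14.9 and 13.7 RPM on day 0, 13.4 and 13.8 on day 4, then 14.8 and 18.8 on day 18. Irgm2 stood at 16.3 and 18.3, 16.6 and 17.4, and 17.7 and 19.1. The day 0 and day 18 libraries overlapped in both genes, and the highest value of each was in day 18 B. At day 18 the log2 changes, 0.22 ± 0.125 (adjusted p = 0.180) and 0.09 ± 0.110 (adjusted p = 0.566), did not pass the test. From day 4 to day 18 Igtp changed by 0.29 ± 0.125 (adjusted p = 0.0900), or 0.46 without day 18 A and 0.13 without day 18 B. Irgm2 changed by 0.11 ± 0.110 (adjusted p = 0.511). With all 6 libraries neither of these log2 changes passed the test. For the sum, which does not depend on how reads were divided, they were -0.05 ± 0.0854 at day 4 (adjusted p = 0.809) and 0.15 ± 0.0854 at day 18 (adjusted p = 0.178), with 702 and 693, 660 and 638, and 674 and 877 reads.

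**Figure D2:**
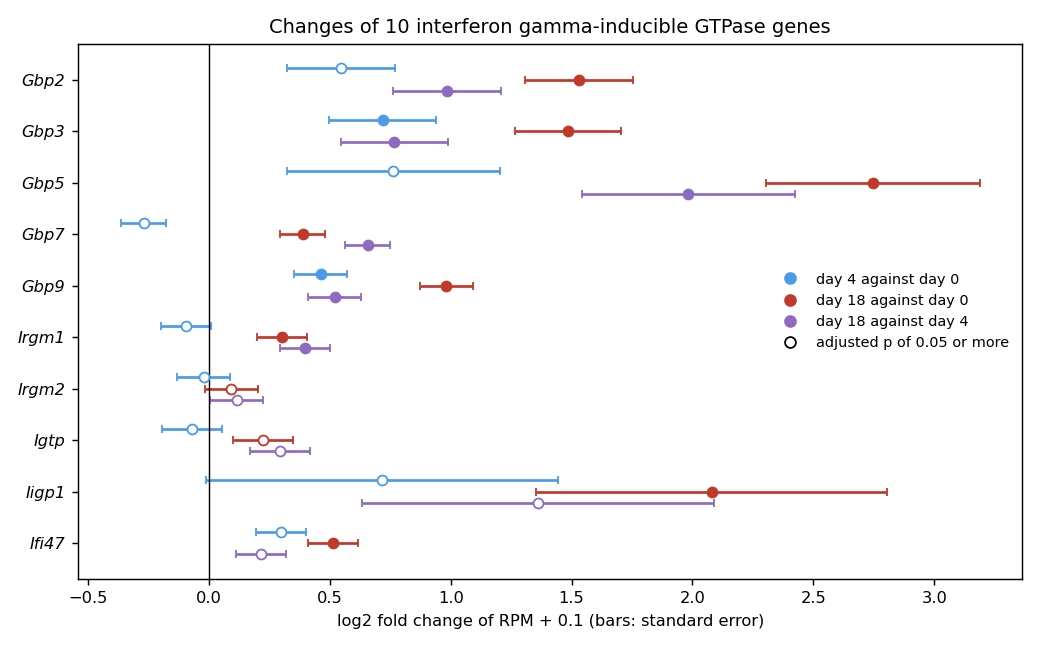
Log2 fold change (RPM + 0.1) with its standard error for each gene in the 3 comparisons; filled points passed the test and open points did not. Values for day 18 against day 0 run from 0.09 in Irgm2 to 2.75 in Gbp5, and the 8 filled ones are all above 0. In that comparison 18.0% of all tested genes rose and 17.1% fell. The 8 include Iigp1, which passed the filter on low values only through day 18 and so could only be called above 0.

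At day 4, fewer of the genes had moved. Gbp3 and Gbp9 rose, 2 of 10, where 5.44% of all tested genes rose, and 0 fell by limma, where 6.62% of all did. At an unadjusted p under 0.05, 5 of the 10 and 3470 of all genes (24.3%) passed. None of the 10 was called at least 2-fold higher, where 0.441% of all were, and 12.1% of all genes were called in either direction. Both day 4 libraries lay above both day 0 libraries in 4 genes (Gbp2, Gbp3, Gbp9 and Ifi47), where 25.4% of all tested genes did. Those 4 also lay higher again at day 18 without overlap, a stepwise order that 8.45% of tested genes had. In the other 6 genes, day 4 overlapped day 0 or, in Gbp7, lay below it.

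From day 4 to day 18, 6 of the 10 rose and 0 fell by limma, with 8 of 10 and 4983 of all genes at an unadjusted p under 0.05. Over all tested genes 14.0% rose and 11.9% fell (25.9% in either direction), and 34.8% had an unadjusted p under 0.05. Only Gbp5, 1 of the 10, rose at least 2-fold by the fit, where 3.89% of all did. The risers were the 5 GBP genes and Irgm1. In all 10 genes both day 18 libraries lay above both day 4 libraries, as they did in 30.2% of all tested genes. For Iigp1, 1 of the 10, the filter on low values had fixed this order. Gbp5 rose most, by 1.98 ± 0.441 on the log2 scale (adjusted p = 0.00629), followed by Gbp2 with 0.98 ± 0.224 (adjusted p = 0.00138). The comparisons share libraries, so they are not independent of each other.

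Levels between genes were compared as scaled RPM per kilobase of annotated exon, since the deposited values are per kilobase of the whole gene and weigh long introns. At day 0 the order was Igtp (7.07 ± 0.424, mean ± SD, n = 2), Ifi47 (6.33 ± 0.112), Irgm2 (4.69 ± 0.393), Gbp7 (4.14 ± 0.213), Irgm1 (3.63 ± 0.156), Gbp9 (2.33 ± 0.115), Gbp2 (1.07 ± 0.259), Gbp3 (0.783 ± 0.0665), Gbp5 (0.199 ± 0.144) and Iigp1 (0.0157 ± 0.0114). No neighbours in this order overlapped, though with 2 libraries each the gaps of 1.12-fold between Igtp and Ifi47 and 1.13-fold between Irgm2 and Gbp7 were small. At day 18 the members lay closer together. Ifi47 stood at 9.06 ± 0.470 and overlapped Igtp (8.32 ± 1.38). Irgm2 (4.99 ± 0.276) overlapped Gbp9 (4.63 ± 0.326), which overlapped Irgm1 (4.48 ± 0.113). The least abundant GBP gene, Gbp5, was 35.5-fold below Igtp per exon length at day 0 and 6.61-fold below at day 18. The day 0 ratio was 24.5 in library A and 69.5 in library B, where Gbp5 had 45 and 14 reads. The GBP genes together held 39.3% and 36.6% of the summed RPM of the 10 genes on day 0, 38.8% and 40.8% on day 4, then 49.0% and 47.1% on day 18. The division of reads between Igtp and Irgm2 also sets their places in this order.

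**Figure D3:**
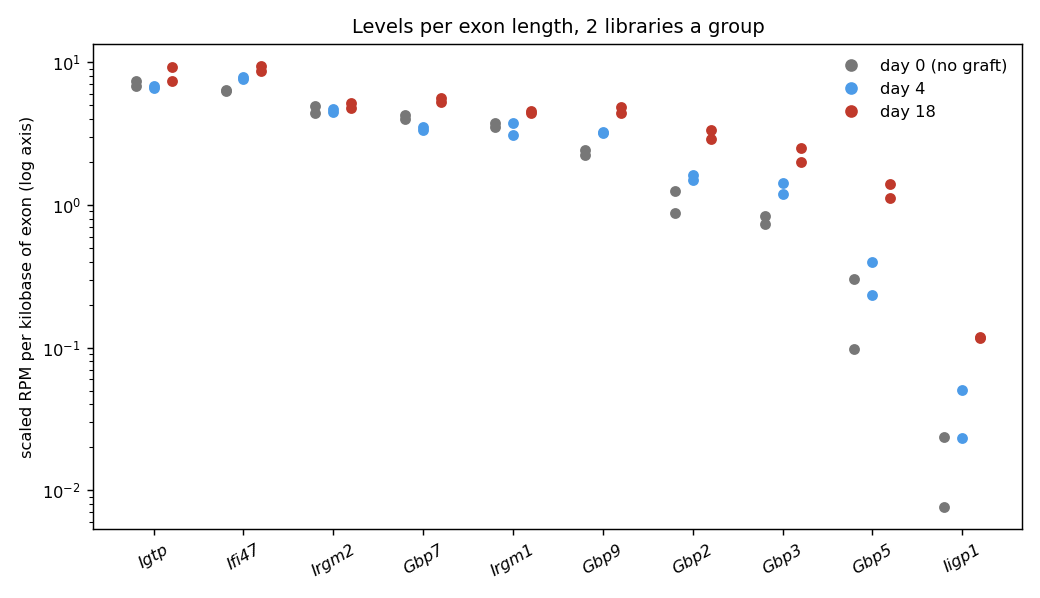
Scaled RPM per kilobase of exon (log axis) of the 10 genes in the 6 libraries, ordered by the day 0 mean. The genes lowest at day 0, from Gbp9 to Iigp1, show the widest gaps between grey and red points.

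Other genes of the same families held 148 to 152 RPM in sum at day 0, 153 to 155 at day 4 and 140 to 146 at day 18, most of it from 9930111J21Rik2 and 9930111J21Rik1. Of 18 further GBP and IRG genes listed, 14 were in the table and 10 were tested; 3 rose and 1 fell at day 18, against 18.0% and 17.1% of all tested genes. Gbp2b, next to Gbp2, rose from 3.07 and 3.19 RPM at day 0 to 5.60 and 6.14 at day 18 (0.89 ± 0.227, adjusted p = 0.00288). Gm12250, the gene of Irgb10, a protein that attacks bacterial membranes together with GBPs, rose from 0.577 and 1.39 to 2.27 and 1.99 (log2 change 1.15 ± 0.409, adjusted p = 0.0298), and Gm5431 also rose (0.65, adjusted p = 0.0326). The gene 9930111J21Rik2 fell from 99.6 and 102 RPM to 83.8 and 85.3 (-0.25, adjusted p = 0.000157). Tgtp2, a GKS-class IRG gene, rose at day 4, from 2.92 and 3.67 to 5.22 and 5.60 (0.70, adjusted p = 0.0339), and stood at 4.32 and 4.39 at day 18 (0.40, adjusted p = 0.169 against day 0). Its reads, like those of Gm5431 and 9930111J21Rik2, were fractional in most libraries, so near-identical copies such as Tgtp1 may hold part of them. In the chromosome 5 cluster, Gbp4 (0.63, adjusted p = 0.188) and Gbp8 (0.69, adjusted p = 0.0938) did not pass at day 18. Gbp6, Gbp10, Tgtp1 and Gm4951 were in the table but too low to test, and 9930111J21Rik1 (-0.03), Gm12185 (-0.02) and Gvin1 (0.35) did not pass.

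The pathway upstream of the GTPases moved unevenly. Of 11 genes of interferon gamma signalling, 5 rose and 3 fell at day 18, with a median of 0.05, where 18.0% of all tested genes rose and 17.1% fell. The receptor gene Ifngr1 rose from 142 and 136 RPM at day 0 to 195 and 183 at day 4 and 222 and 219.6 at day 18 (0.67 ± 0.0392, adjusted p = 2.17e-13). Ifngr2 rose by 0.32 and Jak2 by 0.21, while Jak1 fell by 0.14 on the log2 scale. The factor genes Irf1 (0.34, adjusted p = 3.75e-05) and Irf8 (1.09 ± 0.0672, adjusted p = 5.59e-13) rose, and the feedback inhibitor Socs1 (-0.14, adjusted p = 0.647) did not pass. Ifng itself was not analysed here. Of the cytokines that induce it, Il18 rose (0.60, adjusted p = 0.0462), Ebi3 fell (-0.18, adjusted p = 0.00822) and Il12a, Il15 and Il27 did not pass. Of 12 T and NK cell markers 5 were in the table. They summed to 60.9 to 62.2 RPM at day 0, 51.1 to 57.7 at day 4 and 56.0 to 57.7 at day 18, most of it Cd3d.

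Other interferon gamma targets were higher at day 18 in most cases: 16 of 20 tested rose and 0 fell, with a median of 1.39, against 18.0% and 17.1% of all tested genes. Cd74, the invariant chain of MHC class II, rose by 1.22 ± 0.0259 and H2-Eb1, a class II chain, by 1.52 ± 0.0393. Both were slightly lower at day 4 (-0.09, adjusted p = 0.0199, and -0.15, adjusted p = 0.0131). Ciita, the class II activator, rose from 13.2 and 13.4 RPM to 51.8 and 53.9 (1.98). The chemokine gene Cxcl10 rose from 4.80 and 5.22 to 17.8 and 17.7 (1.80). Cxcl9, a chemokine gene that depends closely on interferon gamma, had 5 and 1 reads at day 0 and 21 and 37 at day 18 (adjusted p = 0.00296). Nos2, inducible nitric oxide synthase, had 0 reads in both day 0 libraries and 34 and 23 at day 18 (adjusted p = 0.000644). Cxcl9 and Nos2 passed the filter on low values only through day 18. They could thus only be called higher there, and their calls carry little weight. Both are counted in the 16 of 20 and in the median of 1.39. At day 4, 2 of the 20 rose and 3 fell, against 5.44% and 6.62% of all.

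For the lists that follow, the shares of all tested genes are again 18.0% higher and 17.1% lower at day 18, and 5.44% and 6.62% at day 4. Of 7 genes of type I interferon signalling 5 rose and 0 fell at day 18 (median 0.36), among them the factor gene Irf7 (0.70) and the receptor gene Ifnar1 (0.57). Type I interferon targets were higher too: 14 of 19 rose and 2 fell at day 18 (median 0.65), and 7 rose and 0 fell at day 4 (median 0.18). Zbp1 rose from 6.66 and 5.92 RPM at day 0 to 17.5 and 18.5 at day 18, and Ifi44 rose by 0.95 ± 0.0857 on the log2 scale, while Cmpk2 (-0.24) and Oas3 (-0.19) fell. The partners of the GTPases differed by list. All 7 inflammasome genes rose at day 18 (median 0.46), with Nlrp3 at 0.98 ± 0.0748 and Ninj1 at 0.69. Casp4, which encodes caspase-11, rose by 0.46 (adjusted p = 0.00103). At day 4, 1 of the 7 rose and 1 fell, the latter Nlrp3 (-0.31, adjusted p = 0.00546). Of 11 genes of the Atg8 conjugation system, which places GBP and IRG proteins on vacuoles, 2 rose (Map1lc3b, 0.19, and Gabarapl1, 0.48) and 1 fell (Atg3, -0.18). Of 8 genes of prenylation, the lipid modification of several GBPs, 1 rose (Rabggtb, 0.36) and 1 fell (Ggps1, -0.31). The counts of these last 2 lists were near the shares of all genes and are not a result about them. Immediate early genes, which rise when tissue is dissociated, were higher as well: 7 of 8 rose and 1 fell at day 18, with Fosb at 1.11, and their part in these results was not tested.

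**Figure D4:**
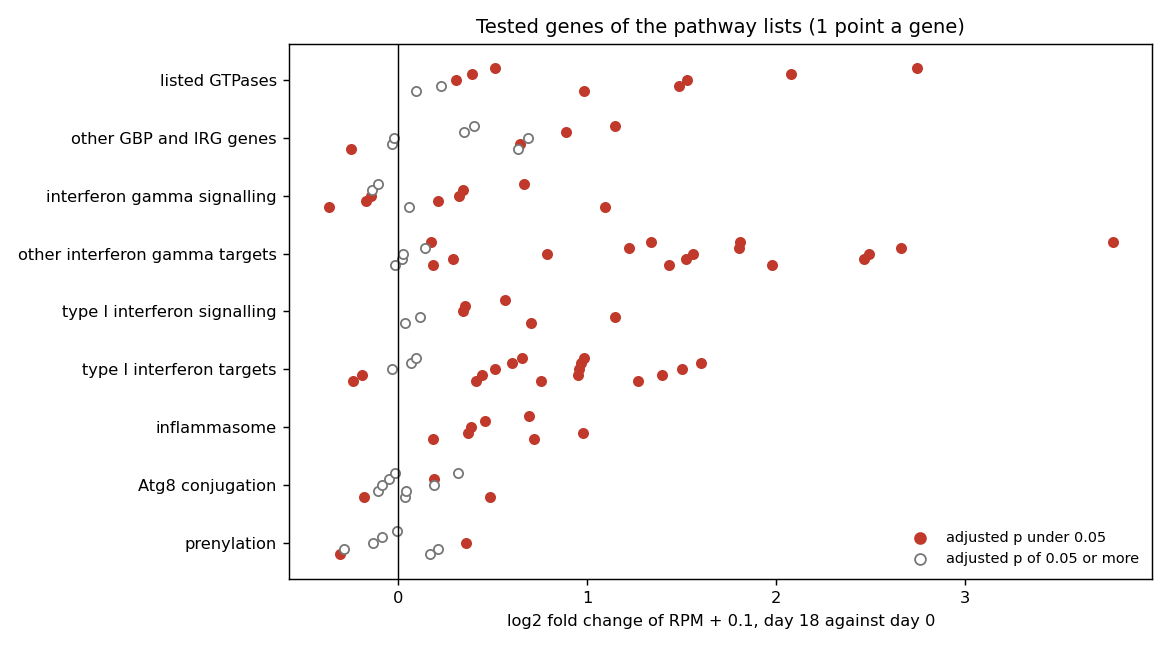
Log2 fold change (RPM + 0.1) from day 0 to day 18 of every tested gene in the GTPase family and its pathway lists, 1 point a gene; red points passed the test. The listed GTPases and other interferon gamma targets spread to the right of 0, with medians of 0.75 and 1.39, while the Atg8 and prenylation genes lie around 0. The GTPases include Iigp1, and the targets Cxcl9 and Nos2, which passed the filter on low values only through day 18.

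The genes most like the mean profile of the 10 members over the 6 libraries were named by the root mean square difference of centred log2 values, among 9861 other tested genes with a mean of at least 5 RPM. They were Sirpb1c (0.0461), Ppfibp1 (0.0615), Nrp2 (0.0627), Mink1 (0.0664), Colec12 (0.0666), Tnip2 (0.0681), Pid1 (0.0690) and Oasl1 (0.0723), the last an interferon target. Of the members, Gbp9 was nearest the mean profile (0.0979) and Gbp5 farthest (0.854). All 8 named genes were nearer to it than any member. They were picked as the nearest of 9861, and members were not held to the floor of 5 RPM, so nothing is concluded from this. Of the 10 tested relatives only 9930111J21Rik1 and 9930111J21Rik2 were abundant enough to be candidates.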

How the data were processed

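Sorted femur cells gave RNA (Qiagen kit) for Illumina libraries, per the labels' protocols. The submitters' processing notes name STAR 2.5.3a and the build mm10. Neither they nor the labels name a counting tool, annotation or strand setting. The deposited values are RPKM per whole gene: multiplied by gene length in kilobases, each library sums to 1000000, although the table is named raw counts. The count test planned at first was therefore replaced by limma. Steps between low values gave the reads per library. Of genes under 100 reads, 81.2% to 82.9% held whole reads within 0.05, too few for a count test. Columns carry the day and a letter that no label uses.

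RPM were scaled by trimmed mean of M values (factors 0.968 to 1.03). Genes with at least 0.458 RPM in 2 libraries and 15 reads in total were tested: log2(RPM + 0.1), limma 3.58.1 in R 4.3.3, 1 model of 6 libraries, trended spread, robust moderation. Such fold changes understate those of low genes. Exon lengths and gene types are from GENCODE M21, in which 16922 genes had the same span; promoters are from RefSeq. Python 3.11.15, pandas 2.3.3, numpy 2.4.6 and matplotlib 3.10.9 were used. Members, gene lists and tests were chosen with earlier results of these data known. All members were reported, as were Ifngr1, Ifngr2, Jak1, Jak2, Irf1, Irf8, Socs1, Ciita, Cxcl9, Cxcl10 and Nos2. 1 more gene of this rule is not reported here. Further genes were every relative in the table, up to 2 called genes per list and direction with the smallest p, and the 8 nearest profiles. Genes named outside this rule (Adgre1, Il12a, Il15, Il27, Casp4 and Cd3d) were chosen after their values were seen. Alternatives were other scalings, filters, pseudocounts, scales and models of the spread, 4 libraries only, no abundant genes, a block and each library left out. The summed pairs of genes were added after the data were seen.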

Additional observations from a re-analysis of the deposited data

How the results depend on the processing

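Of 481 values of single genes under the alternatives, 447 kept their direction and side of the threshold, 26 lost a call, 4 gained one and 4 changed sign. The sign changes were in values at day 4 that never passed: Irgm2 (-0.02) with library totals alone (0.031), without day 0 B (0.067) and without day 4 A (0.015), and Irgm1 (-0.10) without day 4 B (0.044). With 1 library left out Irgm2 ran from -0.11 to 0.067 and Irgm1 from -0.23 to 0.044. From day 0 to day 18 the GTPases called higher were 8 as reported and 6 to 8 under every alternative (6 to 7 with 1 library left out). Day 4 rested on more choices. With 1 spread for all levels, limma called 0 of all genes (2455 at an unadjusted p under 0.05) and 0 of the 10 (4 higher unadjusted), against 1725 and 2 as reported. On the RPKM scale it called 91 and 0 (4 unadjusted), and with only the 4 libraries compared 1 of the 10. Leaving out 1 library gave 909 to 1553 of all genes and 0 (without day 0 B, 4 unadjusted) to 2 of the 10. With 1 spread for all levels, 2619 genes were called at day 18 against day 0 (5030 as reported; 3605 to 4007 with 1 library left out). From day 4 to day 18 that setting gave 1358 genes and 2 GTPases, against 3703 and 6, the RPKM scale 2078 genes, and leaving out 1 library 2514 to 3397 genes and 5 to 6 GTPases. The cause was not tested. At day 18, Gbp5 (adjusted p = 0.0504) and Irgm1 (0.138) lost their calls with 1 spread, and Irgm1 also on the RPKM scale (0.105). With library totals alone 73.2% of called genes at day 4 were higher, against 45.1%, and 70.7% at day 18 against day 0, against 51.3%; Ifi47 then passed at day 4 (0.35, adjusted p = 0.0240). The letters of the columns are not tied to the replicate numbers of the labels, and libraries of the same letter did not deviate together (r = -0.02, 0.004 and -0.05 for the 3 pairs of groups). With the letter as a replicate block, 1668, 4937 and 3668 genes and 2, 8 and 6 GTPases were called at day 4, at day 18 and between them. With a mean of at least 1 RPM Iigp1 was not tested. Depth limits Iigp1 most, and Gbp5 at day 0.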
